A study of Mus musculus with 12 samples.

Results

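Growth hormone receptor and STAT5 signalling was followed here through 10 genes: the receptor Ghr, its kinase Jak2, the transcription factors Stat3, Stat5a and Stat5b, the feedback inhibitors Cish, Socs2 and Socs3, and the circulating growth factor genes Igf1 and Igfals. The members were all probe sets that the platform annotation gives to exactly these symbols, 22 of the 22690 on the array, with 1 to 3 per gene. The study measured liver RNA on Affymetrix arrays in 12 female mice of the strain C57BL/6, each on an array of its own, in 4 groups of 3. All mice received injections of 100 µl sesame oil under the skin, 2 per week for 3 weeks. The vehicle groups received oil alone and the testosterone groups oil with 0.9 mg testosterone per injection. A vehicle and a testosterone group were examined at the end of treatment, and another pair after hormone withdrawal. The sample labels give 12 weeks for the withdrawal and the design text of the series gives 3 weeks, so its length is not settled here. The age of the mice is not given in the sources used here, no genotype other than the strain is named, and no surgery is mentioned. The study asked which testosterone effects on the female liver outlast the hormone.

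In the liver, growth hormone binds its receptor and activates the kinase JAK2, which phosphorylates STAT5, mainly STAT5b in hepatocytes, and STAT5 then enters the nucleus and switches on target genes. Igf1 and Igfals are such targets and encode the circulating growth factor IGF-1 and the subunit that keeps it in a stable complex in blood. Cish, Socs2 and Socs3 are also induced through STAT factors and dampen the same pathway. Male rodents secrete growth hormone in separate pulses and females more continuously, and this difference sets many sex differences in liver gene expression. A transcript level reports neither the phosphorylation of STAT5 nor the hormone in blood, and neither was measured here.

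Array signals are in arbitrary units, and a level is compared only within 1 probe set, never between probe sets. The 12 arrays had median signals from 20.03 to 22.44, and the log2 signals of arrays of the same group correlated at 0.979 to 0.989. The summed signal of 10 hepatocyte marker genes lay between 39761 and 49897 on all arrays, whereas no probe set of the cholangiocyte or lymphocyte markers passed the filter on dim signals. Summed exocrine pancreas markers of 9 genes ranged from 52 to 1110 in testosterone mice after withdrawal, and reached at most 91 in the other groups. Their 1 tested probe set was not called at either time, and the part of such cells in the members' changes was not tested. Genes known to be higher in female liver were called lower with testosterone in 28 of 30 tested probe sets at the end of treatment and in 26 of 30 after withdrawal. Genes known to be higher in male liver were called higher in 14 and 15 of 16. The beta-actin ratio, which sets the 3′ against the 5′ control probe set and is a sign of RNA quality, at the end of treatment was 1.52 ± 0.108 in vehicle and 2.11 ± 0.0769 in testosterone mice (SD, n = 3 each), with no overlap (exact permutation test, two-sided, p = 0.1, the smallest this design allows). After withdrawal the ratio was 1.77 ± 0.154 in vehicle and 1.62 ± 0.179 in testosterone mice (exact permutation test, p = 0.2). Summed macrophage markers of 12 genes at the end of treatment lay between 4013 and 6313 in vehicle and between 2864 and 3534 in testosterone mice, and 9 of their 16 tested probe sets were called lower. The part of these cells in the members' changes was not tested. Vehicle mouse 2 at the end of treatment stood apart in acute phase genes, with an Saa1 signal of 5041.6 against 379.5 and 246.6 in the other vehicle mice. In whole liver, fewer cells of a type and less RNA per cell cannot be told apart.

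Of the 22 member probe sets, 21 passed the filter. The remaining one, 1424272_at of Stat3, had signals of 1.6 to 13.3, was above the array median on 0 of 12 arrays, and gives no level. Changes below are log2 differences in geometric mean signal with the standard error, from 1 limma fit to 12108 probe sets, and a probe set is called at a Benjamini-Hochberg adjusted p under 0.05 over all of them. At the end of treatment 11 of the 21 were called, 3 higher and 8 lower with testosterone. Over all probe sets 19.4% were called, 9.31% higher and 10.1% lower. The mice of both groups did not overlap in 12 of the 21, against 38.2% of all probe sets. The members' median size of change, without sign, was 0.48 on the log2 scale, against 0.23 over all probe sets tested.

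After withdrawal 1 of the 21 was called, Cish, which was lower with testosterone. Over all probe sets 4.9% were called at that time, 2.16% higher and 2.73% lower, and the mice did not overlap in 4 of the 21 members against 24% overall. Centring the arrays on their medians changed the split over all probe sets after withdrawal from 262 higher and 331 lower to 333 higher and 215 lower. It left Cish called lower. The difference between the testosterone effects at the 2 times was called for 5 member probe sets, in Ghr, Stat5b, Cish, Socs3 and Igf1, against 4.77% of all probe sets. The fit with the beta-actin ratio of each array as a covariate called 0 of the 21 at the end of treatment and still called Cish after withdrawal. It called 86 of all probe sets at the end of treatment, against 2344 without the covariate. The ratio separates the groups at the end of treatment, so its part in those changes cannot be told apart from the treatment.

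**Figure D1:**
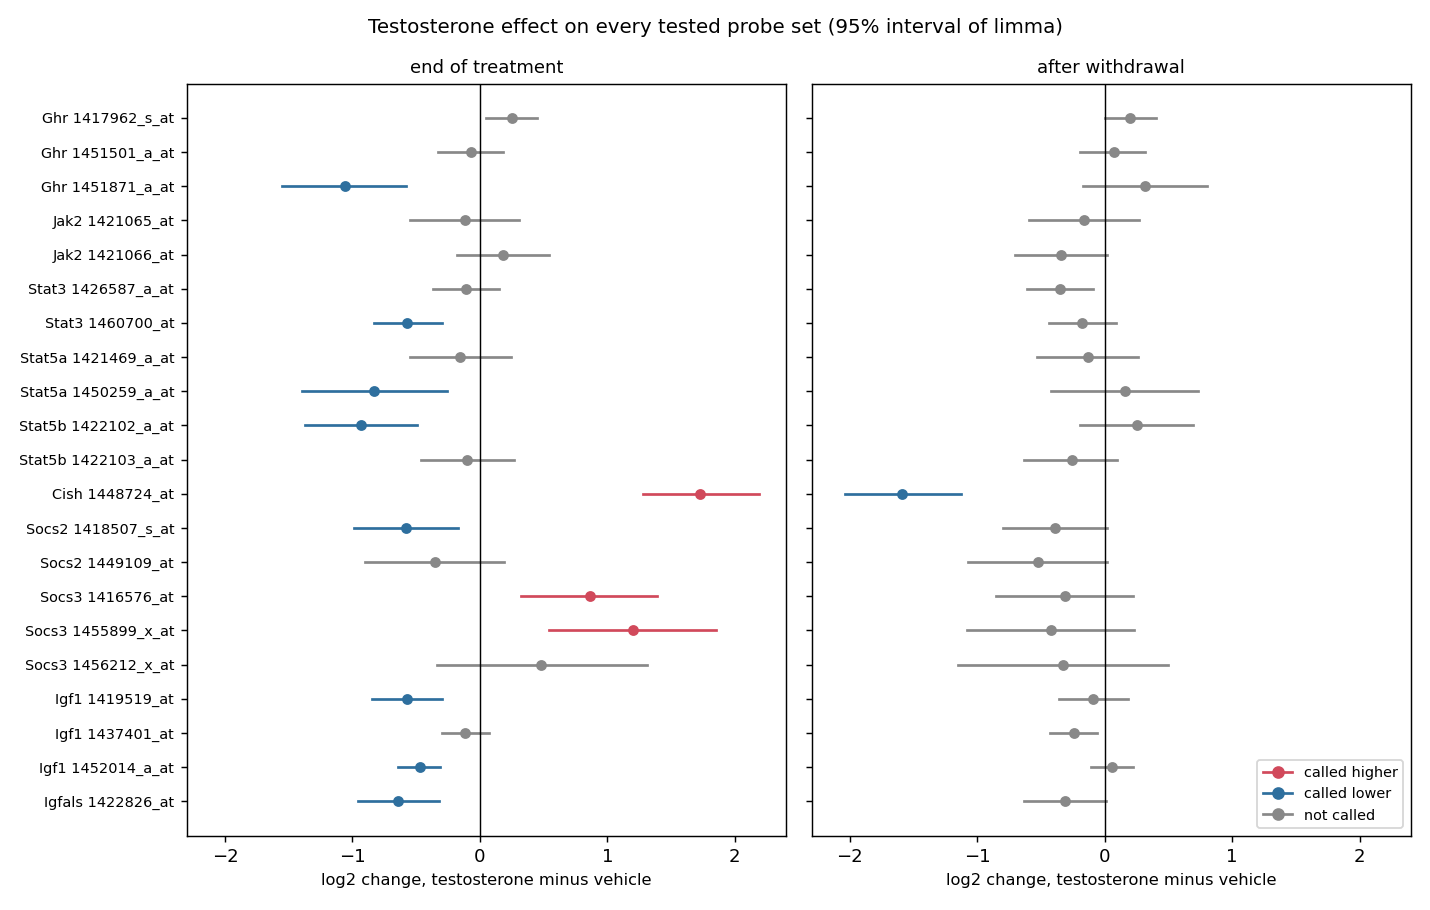
Log2 change with testosterone against vehicle for each of the 21 tested probe sets, at the end of treatment and after withdrawal, with the 95% interval of the limma fit and called probe sets marked. Cish lies at 1.73 at the end of treatment and at -1.59 after withdrawal. At the end of treatment, probe sets of the same gene differ in whether they are called in Ghr, Stat3, Stat5a, Stat5b, Socs2, Socs3 and Igf1.

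Ghr encodes the growth hormone receptor, and its 3 probe sets differed. When treatment ended, probe set 1451871_a_at read 475.8, 534.4 and 468.1 in vehicle and 235.7, 215 and 258.2 in testosterone mice. All testosterone mice were below all vehicle mice, and the signal fell 2.09-fold (log2 change -1.06 ± 0.23, adjusted p = 0.0056). After withdrawal it read 431.1, 245.4 and 249.5 in vehicle and 251.4, 407.4 and 498.1 in testosterone mice. These groups overlapped, since vehicle mouse 1 lay among the higher testosterone mice and testosterone mouse 1 beside the lower vehicle mice (0.32 ± 0.23, adjusted p = 0.47). The difference between the times was 1.38 ± 0.32 (adjusted p = 0.03), and that call was lost without any one of 9 of the 12 mice, with values from 1.17 to 1.44. Mean signals of this probe set also fell with time in the vehicle mice, from 493 ± 36.2 to 309 ± 106 (SD, n = 3 each; log2 change -0.72, adjusted p = 0.0426), a call lost without any one of 5 of these 6 mice.

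The other Ghr probe sets were not called. At the first time, probe set 1417962_s_at read 2184.3, 2467.2 and 2643.8 in vehicle and 2920.2, 2712.1 and 3026.8 in testosterone mice. Here every testosterone mouse was above every vehicle mouse, the opposite order to 1451871_a_at, but the change of 0.25 ± 0.09 did not pass the test (adjusted p = 0.0774). After quantile normalization it did (0.28, adjusted p = 0.0116). Probe set 1451501_a_at read 1309, 1409.2 and 1381.9 in vehicle and 1371.8, 1277.4 and 1255.5 in testosterone mice, which overlapped (-0.07, 95% interval -0.33 to 0.18). After withdrawal the first of these changed by 0.20 and the second by 0.07, and neither was called.

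The correlation between 1417962_s_at and 1451871_a_at over the 12 arrays was -0.02, and 0.76 once the group means were removed. Signals of 1451871_a_at ran with the beta-actin ratio of the same array, with a correlation of -0.89 over the 12 arrays and -0.76 within groups. With the ratio as a covariate the change at the end of treatment was 0.03 in place of -1.06, and the difference between the times was -0.02 in place of 1.38. For 1417962_s_at the same fit gave 0.52 (adjusted p = 0.292). These correlations describe 12 arrays that share the 4 groups. The suffixes _s_at and _a_at mark probe sets that match several transcripts, and which Ghr transcripts each one reads is not given in the sources used here.

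**Figure D2:**
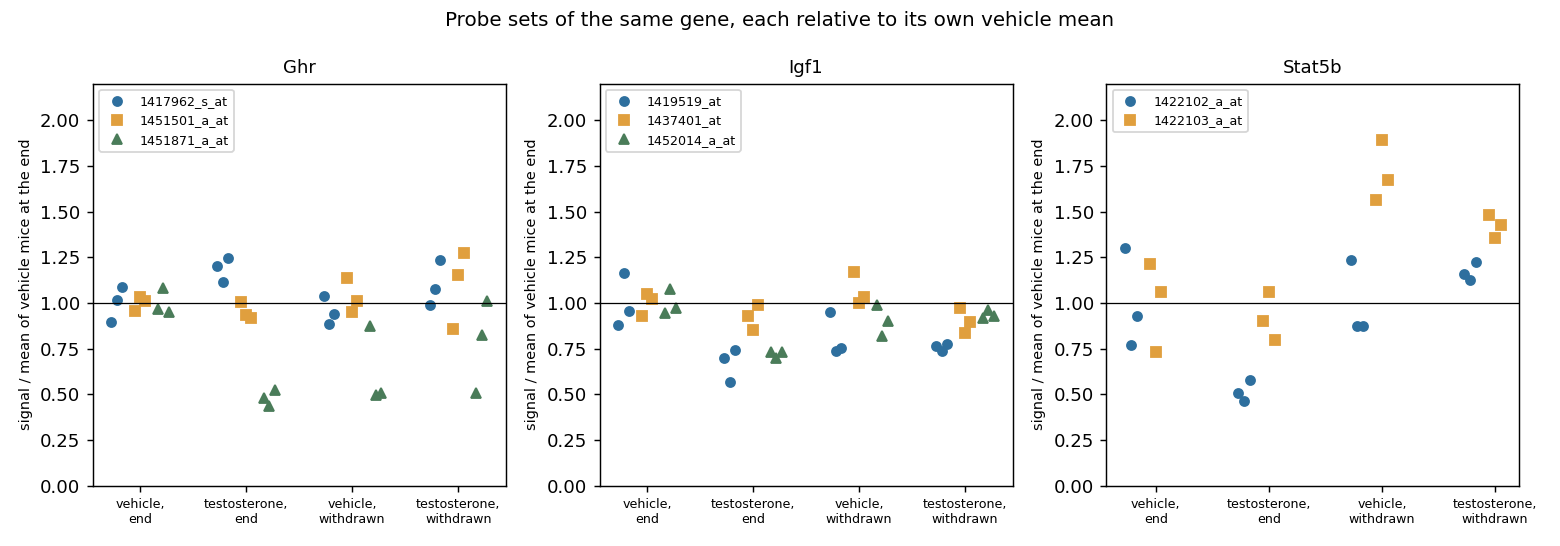
Signal of each mouse divided by the mean of the vehicle mice at the end of treatment, for each probe set of Ghr, Igf1 and Stat5b in the 4 groups. In Ghr only 1451871_a_at lies clearly below 1 when treatment with testosterone ended, and in Stat5b only 1422102_a_at does.

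**Figure D3:**
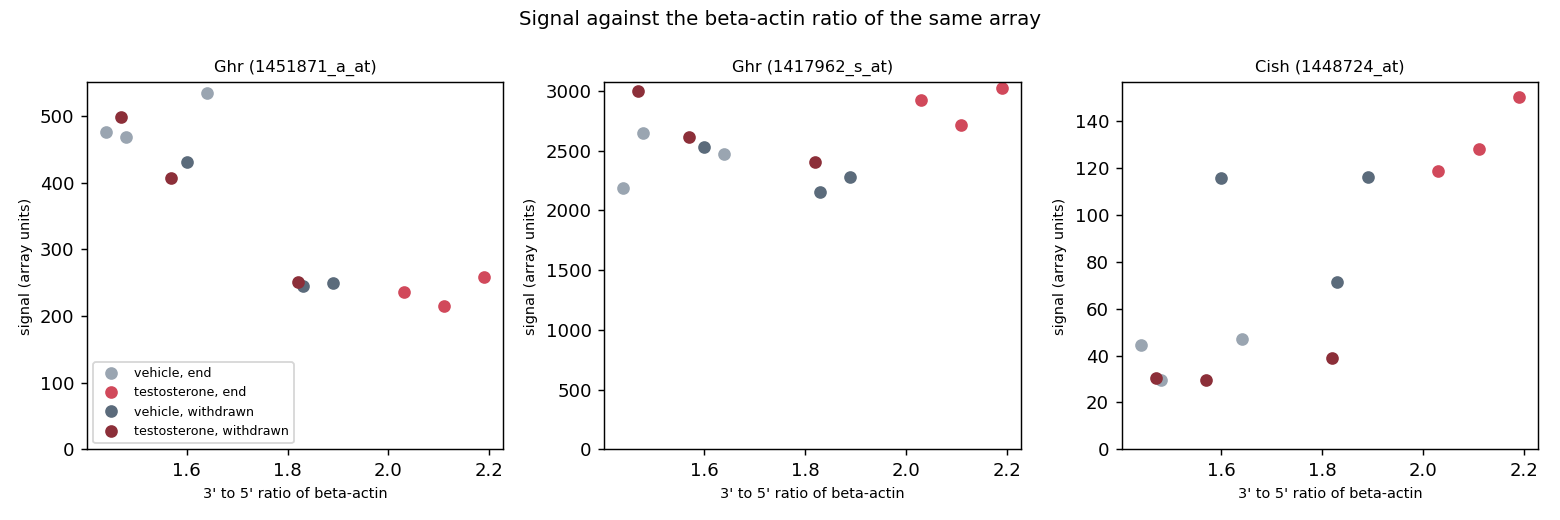
Signal of member probe sets on each of the 12 arrays against the 3′ to 5′ beta-actin ratio of that array, coloured by group. On testosterone, at the first time, mice have ratios of 2.03 to 2.19, above the 1.44 to 1.89 of all other mice.

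Jak2, the kinase bound to the receptor, was called in none of the 5 comparisons. Signals of 1421065_at lay between 21.8 and 33.4 and those of 1421066_at between 50.1 and 86.5 over the 12 mice. The changes at the end of treatment were -0.12 (95% interval -0.55 to 0.31) and 0.18 (-0.18 to 0.54), and after withdrawal -0.16 and -0.34. The groups overlapped in both probe sets at both times. These intervals allow changes of up to about the size seen for Stat3 and Igf1, so they do not show that Jak2 was level.

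Stat5b encodes the main STAT5 protein of hepatocytes, and its 2 probe sets differed. At the first time, 1422102_a_at read 48.5, 28.7 and 34.7 in vehicle and 18.9, 17.2 and 21.5 in testosterone mice. All testosterone mice were below all vehicle mice, and the signal fell 1.91-fold (-0.93 ± 0.21, adjusted p = 0.00678). After withdrawal it read 46.1, 32.6 and 32.6 in vehicle and 43.2, 41.9 and 45.6 in testosterone mice, which overlapped (0.25, adjusted p = 0.528). In testosterone mice the signal rose from 19.2 ± 2.15 at the end of treatment to 43.6 ± 1.89 after withdrawal (SD, n = 3 each; 1.19 on the log2 scale, adjusted p = 0.00244). The difference between the 2 testosterone effects was 1.18 (adjusted p = 0.0358), and that call was lost without any one of 8 of the 12 mice, with values from 0.98 to 1.27. With the beta-actin ratio as a covariate the change at the end of treatment was -0.32 (adjusted p = 0.824). That fit did not call the rise in testosterone mice between the times either (adjusted p = 0.42).

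Probe set 1422103_a_at of Stat5b read 80.4, 48.5 and 70.3 in vehicle and 59.9, 70.5 and 52.9 in testosterone mice when treatment ended. The groups overlapped, with a change of -0.10 (95% interval -0.46 to 0.27). It read 103.7, 125.5 and 110.9 in vehicle and 98.3, 90 and 94.8 in testosterone mice after withdrawal. Here the testosterone mice were below the vehicle mice without overlap, but the change of -0.26 was not called (adjusted p = 0.42). What this probe set did show was a rise with time in both treatments, by 0.80 in vehicle mice (1.74-fold, adjusted p = 0.00759) and by 0.64 in testosterone mice (adjusted p = 0.0291). The second call was lost without any one of 5 of the 6 mice, with values from 0.54 to 0.67. The correlation between the Stat5b probe sets was 0.59 over 12 arrays and 0.30 within groups.

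Stat5a, the close relative of Stat5b, read 42.3, 49 and 56.2 in vehicle and 43.7, 49.5 and 38.9 in testosterone mice with 1421469_a_at when treatment ended. After withdrawal the same probe set read 79, 102.9 and 68.1 in vehicle and 78, 60.5 and 88.8 in testosterone mice. Treatments overlapped at both times, while every mouse after withdrawal was above every mouse at the end of treatment. The rise with time was 0.75 in vehicle mice (adjusted p = 0.0143) and 0.77 in testosterone mice (adjusted p = 0.0161). The first was lost without vehicle mouse 1 at the end of treatment (0.65) or vehicle mouse 2 after withdrawal (0.59), and the second without testosterone mouse 1 or 3 at the end of treatment (0.77 and 0.69) or testosterone mouse 3 after withdrawal (0.65). Among all probe sets 16.4% were called between the times in vehicle mice and 10.2% in testosterone mice, and of the 21 members 4 and 8. In vehicle mice 12 of 16 tested probe sets of macrophage markers and 11 of 30 of acute phase genes were called lower between the same times, with medians of -0.99 and -0.53. Their part in the changes of Cish, Stat5a and Stat5b over time was not tested. With the beta-actin ratio as a covariate the vehicle rises were 0.78 for Stat5a 1421469_a_at and 0.90 for Stat5b 1422103_a_at. Neither was then called (adjusted p = 0.116 and 0.0518). The other probe set of each gene did not show the rise in vehicle mice, even without the covariate. Stat5a changed by 0.30 with 1450259_a_at (adjusted p = 0.479) and Stat5b by 0.01 with 1422102_a_at (adjusted p = 0.987). In testosterone mice they rose by 1.28 and 1.19 (adjusted p = 0.00814 and 0.00244). Mice of the 2 times differ in time since the last injection and, if treatment began at the same age, also in age. These cannot be told apart.

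The dimmer Stat5a probe set, 1450259_a_at, read 21.8, 21.3 and 14.2 in vehicle and 14.2, 8.9 and 9.3 in testosterone mice when treatment ended. At that time only vehicle mouse 2 was above the median signal of its array, 20.05. The probe set thus passed the filter mainly through arrays after withdrawal. The highest testosterone mouse and the lowest vehicle mouse had almost the same signal, and the fall of 0.83 on the log2 scale passed the test narrowly (adjusted p = 0.0428). That call was lost without vehicle mouse 1 or 2 or testosterone mouse 2 or 3 (-0.71 to -0.74), and with a floor of 16 the change was -0.29. After withdrawal it read 27.3, 26.4 and 17 in vehicle and 26.7, 25.1 and 25.4 in testosterone mice, which overlapped (0.16, adjusted p = 0.784). In RefSeq's order of genes Stat5a, Stat5b and Stat3 are neighbours on the same chromosome.

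Stat3 carries signals of the interleukin-6 family to the acute phase genes and is also activated by growth hormone. Probe set 1460700_at read 214.3, 245 and 195.9 in vehicle and 155.4, 158.8 and 128.6 in testosterone mice when treatment ended. No mice overlapped, and the signal fell 1.48-fold (-0.57 ± 0.12, adjusted p = 0.00659). After withdrawal it read 195.7, 226.5 and 222.6 in vehicle and 194.8, 204.6 and 171.2 in testosterone mice, which overlapped (-0.18, adjusted p = 0.457). The brighter probe set 1426587_a_at ranged from 322.2 to 502.7 and changed by -0.11 at the end of treatment, with overlapping groups. After withdrawal its testosterone mice were below its vehicle mice, at 353 ± 24.8 against 452 ± 46.3 (SD, n = 3 each), but the change of -0.35 was not called (adjusted p = 0.118). In 1460700_at the highest vehicle mouse of the first time was mouse 2, the mouse with high acute phase signals, and that change was called without it too. Of 30 tested probe sets of acute phase genes, 12 were called lower and 1 higher with testosterone at the first time. After withdrawal 2 were called lower, those of Hamp2 and Orm3. Hamp2 is also on the list of genes known to be higher in female liver. The summed signal of the acute phase genes at the first time was 43144 to 62119 in vehicle and 37122 to 38429 in testosterone mice. The part of an acute phase response in the Stat3 and Socs3 values was not tested.

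Among the inhibitors Cish moved in opposite directions at the 2 times. Cish encodes CIS, a protein made in response to STAT5 that binds cytokine receptors and damps STAT5 activation. At the end of treatment its probe set 1448724_at read 44.5, 46.9 and 29.6 in vehicle mice and 118.5, 128 and 150.3 in testosterone mice. After withdrawal it read 115.5, 71.1 and 115.9 in vehicle mice and 39.1, 29.4 and 30.5 in testosterone mice. The testosterone mice were thus all above the vehicle mice at the first time and all below them at the second. Cish rose 3.33-fold with testosterone at the end of treatment (1.73 ± 0.21, adjusted p = 0.000115) and fell 3.01-fold after withdrawal (-1.59 ± 0.21, adjusted p = 0.000358). The difference between these effects was -3.32 ± 0.30 on the log2 scale (adjusted p = 0.000106). It was not called with the beta-actin ratio as a covariate (adjusted p = 0.341).

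The Cish signal moved over time in both treatments. Between the end of treatment and the withdrawal time the vehicle mean went from 40.4 ± 9.36 to 101 ± 25.8 and the testosterone mean from 132 ± 16.3 to 33 ± 5.3 (SD, n = 3 each). The rise in vehicle mice was 2.49-fold (adjusted p = 0.00141) and the fall in testosterone mice 4.02-fold (adjusted p = 4.35e-05). Both were also called with the beta-actin ratio as a covariate, at 1.15 (adjusted p = 0.047) and -1.72 (adjusted p = 0.0416). Vehicle mice after withdrawal therefore had Cish signals near those of the treated mice of the first time, with only mouse 2, at 71.1, clearly lower. Both effects of testosterone were called without each single mouse. The effect after withdrawal was also called with the beta-actin ratio as a covariate (-1.49, adjusted p = 0.00294). At the end of treatment that fit gave 1.39 without a call, with an adjusted p of 0.229, where all alternatives spanned 3.69e-05 to 0.229.

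Of the 12108 probe sets, 9 (0.0743%) were called higher at the end of treatment and lower after withdrawal. Ranked by the smaller of the 2 changes, without sign, Cish came first at 1.59, followed by Phlda1 at 1.32 and Wsb1 at 0.95. Phlda1, which encodes a pleckstrin homology domain protein, was also the gene whose 12 signals ran most closely with those of Cish, with a correlation of 0.955. Both groups of vehicle mice enter these comparisons once each, so the 2 effects do not share control mice.

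Promoter windows of the members other than Socs2 were searched for TTCNNNGAA, the palindrome that STAT5 is known to bind, which reads the same on both strands. The windows are those of RefSeq for the mouse build GRCm38.p6 and run from 250 bases before to 50 after an annotated start. There were 14 windows for 9 of the 10 genes. Socs2 had no window in the source used, so whether its promoter holds the motif is not known here. The motif was present in 4 of the 14, in Cish, Socs3 and Igfals, against 8.3% of all 32851 windows. Counted by gene it was present in 3 of the 9, against 9.55% of 27025 genes. The Cish window held 2 copies, beginning at the start and 11 bases further on at position 12, and 0.457% of all windows held 2 or more. The Cish window up to the second copy, chr9:107296409-107296678 on the plus strand, is shown first because Cish gave the largest changes of the members. The short stretches around the single copies of Socs3, at chr11:117969501-117969530 on the minus strand, and of Igfals, at chr17:24877598-24877627 and chr17:24878163-24878192 on the plus strand, follow for comparison, with capitals marking the motif.
Cish: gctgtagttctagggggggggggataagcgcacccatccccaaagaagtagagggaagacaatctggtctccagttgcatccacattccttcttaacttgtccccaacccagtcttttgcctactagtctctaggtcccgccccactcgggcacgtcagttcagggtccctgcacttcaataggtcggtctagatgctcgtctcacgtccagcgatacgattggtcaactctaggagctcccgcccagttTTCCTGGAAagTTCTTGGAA
Socs3: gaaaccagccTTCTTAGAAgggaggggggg
Igfals, first window: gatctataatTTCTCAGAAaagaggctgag
Igfals, second window: ctgccaggtgTTCCTAGAAgaggccctggg
A match in these letters is a description of the sequence. STAT5 binding was not measured in these mice.

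Socs3, an inhibitor induced by STAT3 and by growth hormone, was called higher at the end of treatment by 2 of its 3 probe sets. Probe set 1455899_x_at read 33.5, 52.4 and 20.1 in vehicle and 67.2, 65.6 and 96 in testosterone mice. No mice overlapped, and the signal rose 2.29-fold (1.20 ± 0.31, adjusted p = 0.015), a call lost without vehicle mouse 3 (0.84) or testosterone mouse 3 (1.02). Probe set 1416576_at read 23.2, 31.4 and 18.5 in vehicle and 42.7, 36.1 and 51.9 in testosterone mice. It also showed no overlap and rose by 0.86 ± 0.25 (adjusted p = 0.0279), which was lost without vehicle mouse 1 or 3 (0.84 and 0.68) or testosterone mouse 1 or 3 (0.86 and 0.72). The remaining probe set, 1456212_x_at, read 33.5, 47 and 16 in vehicle and 35, 38.4 and 51 in testosterone mice, which overlapped (0.48, adjusted p = 0.405). With the beta-actin ratio as a covariate 1455899_x_at changed by 0.62 (adjusted p = 0.785) and 1416576_at by 0.81 (adjusted p = 0.632), neither called, and 1456212_x_at turned to -0.86.

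After withdrawal the Socs3 groups overlapped in every probe set, with changes of -0.31, -0.42 and -0.33 and no call. With 1455899_x_at the signals then were 52.2, 28.9 and 56.4 in vehicle and 34.8, 35 and 29.1 in testosterone mice. In testosterone mice Socs3 fell between the times by 1.11 with 1416576_at (adjusted p = 0.0127) and by 1.19 with 1455899_x_at (adjusted p = 0.0238). Each of these calls was lost without some single mice, testosterone mouse 3 at the end of treatment among them (-0.97 and -1.02). The difference between the effects was -1.62 for 1455899_x_at (adjusted p = 0.0474). That call was lost without any one of 9 of the 12 mice, with values from -1.26 to -1.71. In all it was lost in 16 of 21 alternatives, median centring (-1.56, adjusted p = 0.0513) and quantile normalization (-1.54, adjusted p = 0.0597) among them. That difference was -0.88 and not called in the fit with the beta-actin ratio. Vehicle mouse 2 of the first time, with its high acute phase signals, had the highest Socs3 signal of the vehicle mice in all 3 probe sets. The probe sets with the suffix _x_at contain probes that may match other transcripts.

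Socs2, the main brake on growth hormone signalling in growth control, was lower with testosterone at the end of treatment in 1 of its 2 probe sets. Probe set 1418507_s_at read 117.1, 98.1 and 101.8 in vehicle and 65.7, 59.8 and 88.6 in testosterone mice. No mice overlapped, and the signal fell 1.5-fold (-0.58 ± 0.19, adjusted p = 0.0456). This call was close to the threshold, and it was lost without any one of 5 of the 6 mice (-0.47 to -0.63). The fit with the beta-actin ratio gave a larger change, -1.21, also not called (adjusted p = 0.185). Probe set 1449109_at read 187.5, 109.1 and 113 in vehicle and 102.2, 84.7 and 127.8 in testosterone mice, which overlapped (-0.35, adjusted p = 0.353). After withdrawal the changes were -0.39 and -0.52 (adjusted p = 0.277 for both), with overlapping groups in both probe sets. At the end of treatment Cish and Socs3 were thus called higher while Socs2 was called lower, at the same time and in the same mice.

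**Figure D4:**
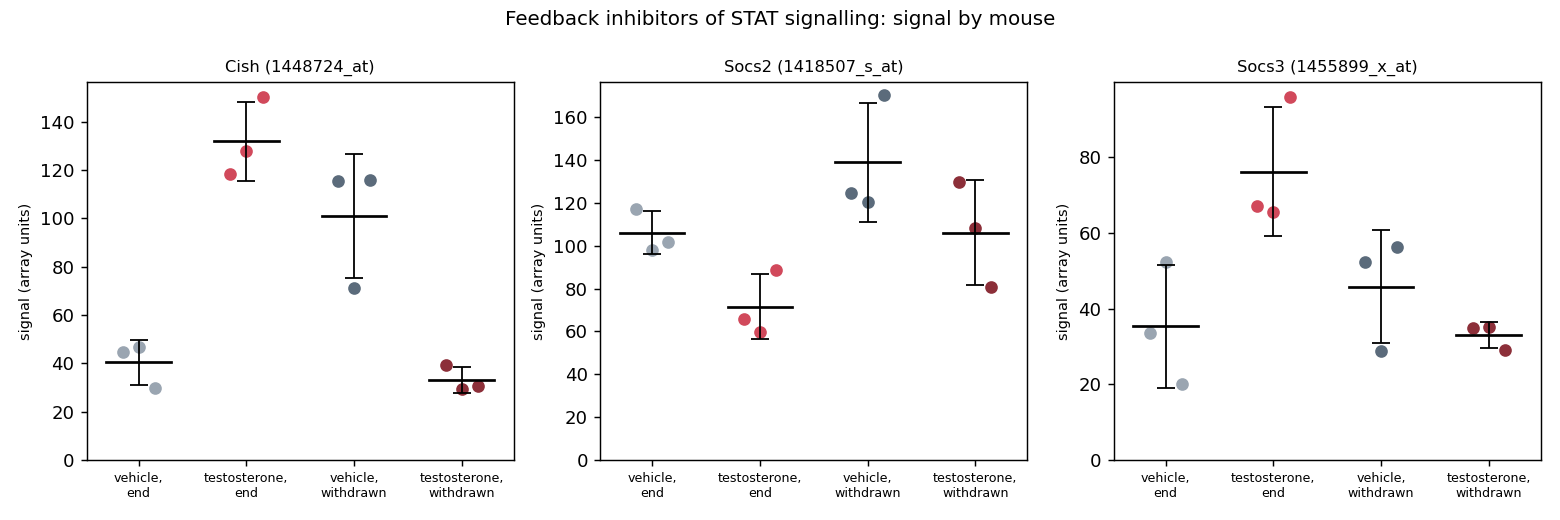
Signal by mouse in the 4 groups for probe sets of Cish, Socs2 and Socs3, with points for single mice and lines for group means. Cish lies at 118.5 to 150.3 with testosterone when treatment ended and at 29.4 to 39.1 with testosterone after withdrawal.

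Igf1, the growth factor that liver releases under growth hormone, was called lower at the end of treatment by 2 of its 3 probe sets. Probe set 1452014_a_at read 2307.4, 2627.2 and 2375.8 in vehicle and 1781.4, 1698.2 and 1782.7 in testosterone mice. The groups were far apart, and the signal fell 1.39-fold (-0.47 ± 0.08, adjusted p = 0.00103). Probe set 1419519_at read 885.3, 1172.2 and 960.5 in vehicle and 703.4, 572.3 and 749.9 in testosterone mice, with no overlap and a 1.49-fold fall (-0.57 ± 0.13, adjusted p = 0.00691). Probe set 1437401_at read 1539.3, 1739 and 1699 in vehicle and 1539, 1416.8 and 1642 in testosterone mice. Its groups overlapped, and its interval of -0.30 to 0.07 did not reach the fall of 0.47 seen with 1452014_a_at.

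After withdrawal no Igf1 probe set was called. With 1452014_a_at the signals were 2413.5, 1991 and 2194.2 in vehicle and 2240.2, 2339.6 and 2262.2 in testosterone mice, which overlapped (0.06, 95% interval -0.11 to 0.22). In testosterone mice this probe set rose between the times by 0.38 (adjusted p = 0.0078). That call was lost with median centring (0.33, adjusted p = 0.0667) and with the beta-actin ratio as a covariate (adjusted p = 0.314). The difference between the testosterone effects was 0.53 (adjusted p = 0.0208), lost without testosterone mouse 2 at the end of treatment (0.51), vehicle mouse 2 or 3 after withdrawal (0.46 and 0.53) or testosterone mouse 2 after withdrawal (0.51). Probe set 1437401_at read 1938.6, 1663.3 and 1717.5 in vehicle and 1609.3, 1389.2 and 1488.8 in testosterone mice after withdrawal, and these did not overlap, but the change of -0.24 was not called (adjusted p = 0.134). Its difference between the times was -0.13 and was not called either (adjusted p = 0.558). Correlations between the Igf1 probe sets over 12 arrays were 0.83 for 1419519_at with 1452014_a_at, 0.64 for 1419519_at with 1437401_at and 0.39 for 1437401_at with 1452014_a_at. With the beta-actin ratio as a covariate the changes at the end of treatment were -0.56 and -0.42 for the called probe sets, of nearly the same size, though no longer called (adjusted p = 0.485 and 0.346).

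Igfals encodes the acid labile subunit, which liver makes under growth hormone. Its probe set 1422826_at read 321.6, 334.8 and 357.1 in vehicle and 254.1, 239.2 and 165.6 in testosterone mice when treatment ended. No mice overlapped, and the signal fell 1.56-fold (-0.64 ± 0.15, adjusted p = 0.00913). With the beta-actin ratio as a covariate the change was -0.29 (adjusted p = 0.79). After withdrawal it read 305.4, 278.4 and 337.2 in vehicle and 216.1, 246.1 and 280.8 in testosterone mice. The groups then overlapped by a single pair, vehicle mouse 2 and testosterone mouse 3, and the change of -0.31 was not called (95% interval -0.63 to 0.01, adjusted p = 0.266). The fall at the end of treatment in Igf1 and Igfals stood beside a rise in Cish in the same mice.

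Other genes of cytokine and growth hormone signalling were taken from a list of 54 genes, 48 of which were on the array, with 62 tested probe sets. At the end of treatment 2 were called higher and 11 lower, or 21% against the 19.4% of all probe sets, with a median change of -0.14 against 0.04. The share called was thus near the background. After withdrawal 2 were called higher and 3 lower, 8.06% against 4.9% of all, with a median of -0.07 against -0.03. Onecut1, which encodes the liver factor HNF6 and is known to respond to growth hormone, rose 3.41-fold at the end of treatment, from 47 ± 4.66 to 162 ± 30.7 (SD, n = 3 each; 1450252_at, adjusted p = 0.00137). After withdrawal it was not called (0.17, adjusted p = 0.8), and the difference between the times was -1.60 (adjusted p = 0.0474). The other Onecut1 probe set, 1421447_at, rose by 1.04 at the end of treatment (adjusted p = 0.0432), and its difference of -0.38 was not called (adjusted p = 0.666).

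Cux2, a repressor found mainly in female liver, fell at both times. Its signal went from 29.9 ± 8.18 to 1.23 ± 0.569 at the end of treatment and from 32.5 ± 3.93 to 4.51 ± 3.55 after withdrawal (SD, n = 3 each), falls of at least 6-fold and at least 5.53-fold because the lower signals reached the floor of 4.84 (adjusted p = 0.000103 and 0.000214). Il6st, which encodes the receptor chain gp130 used by interleukin-6, fell at least 5.14-fold at the end of treatment with 1421239_at (adjusted p = 0.00268) and was not called after withdrawal (0.33, adjusted p = 0.722). Its other probe sets changed less at the end of treatment, by -0.96 with 1460295_s_at (adjusted p = 0.00217) and by -0.22 with 1452843_at, which was not called (adjusted p = 0.213). Bcl6 is a repressor that shares sites with STAT5 and is known to be higher in male liver. After withdrawal 1421818_at was 8.04-fold higher with testosterone, at 179 ± 43 against 22.2 ± 5.03 in vehicle mice (SD, n = 3 each, adjusted p = 2.88e-06). At the end of treatment that probe set changed by -0.01 (adjusted p = 0.974), and the difference between the times was 3.02 (adjusted p = 0.000737). Over time its signal fell by 1.37 in vehicle mice (adjusted p = 0.00303) and rose by 1.65 in testosterone mice (adjusted p = 0.000919). The second Bcl6 probe set, 1450381_a_at, was lower by 0.79 with testosterone at the end of treatment (adjusted p = 0.0183). After withdrawal it was higher by 2.36 (adjusted p = 6.1e-06). It too fell over time in vehicle mice, by 1.12, and rose in testosterone mice, by 2.03. Bcl6 and Cish therefore moved in opposite directions after withdrawal. Socs5, another inhibitor of the same family, was 2.08-fold lower with testosterone after withdrawal with 1423350_at (adjusted p = 0.0175), which changed by 0.00 at the end of treatment (adjusted p = 0.992). Over time that probe set rose by 0.77 in vehicle mice (adjusted p = 0.0384) and changed by -0.29 in testosterone mice (adjusted p = 0.477). Its other probe set, 1423349_at, was instead called lower at the end of treatment (-0.56, adjusted p = 0.0248) and not after withdrawal (-0.35, adjusted p = 0.248), and neither difference between the times was called.

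The genes most like each member were named by the correlation of log2 signals over the 12 arrays, with the brightest probe set of each member. For Stat5b they were Gldc at 0.969, Slc4a4 at 0.961 and Lgr5 at 0.949. For Stat5a they were Zfp36l1 at 0.947, Gfod2 at 0.94 and Cdkn1a at 0.925. For Igf1 they were Ptpn12 at 0.959, Dcun1d1 at 0.937 and Mea1 at 0.93, and for Igfals they were Itih4 at 0.966, Nr1i3 at 0.917 and Slc46a1 at 0.916. Between members the closest pairs, with the same probe sets, were Stat5a with Stat5b and Cish with Socs3, both at 0.84. The most negative pairs were Ghr with Socs2 at -0.68 and Cish with Igf1 at -0.67. These values describe 12 arrays that share 4 groups, and they carry no test.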

How the data were processed

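The authors deposited 1 linear intensity for each probe set of an array, made with GCOS and MAS5 per the submitters' processing notes, which give no versions. RNA came from a phenol extraction with a DNase step and columns, per the labels' protocols. Each array had the same 2% trimmed mean, 100.05, so no further scaling was applied. Signals under 4.84, the 25th percentile, were set to it before log2. Of 22626 probe sets other than 64 controls, 12108 lay above the array median on at least 3 of the 12 arrays and were tested, each on its own. Tests used limma 3.58.1 in R 4.3.3 (lmFit, eBayes with a variance trend, two-sided) with 4 group means and 5 comparisons, and p-values were adjusted by Benjamini-Hochberg. The code was tested on simulated data. The members, gene lists and tests were chosen with earlier results of these data known, so no count of members is independent evidence. The rule for named genes took every member probe set, at most 3 called genes per list and comparison by size of change, and the 3 closest correlates. Mice were grouped by their titles, each replicate was a separate mouse per the series' design text, and the number of arrays limits the precision. Alternatives covered the floor, scaling, filter, variance trend, probe set choice, replicate block, beta-actin ratio and each mouse left out.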

Additional observations from a re-analysis of the deposited data

Results flagged for a closer look

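The effect of testosterone differed between the end of treatment and the withdrawal time, by a direct test of the difference in limma, in 5 member probe sets. For Cish the difference was -3.32 on the log2 scale (adjusted p = 0.000106), from 1.73 at the end of treatment to -1.59 after withdrawal. For Socs3 with 1455899_x_at it was -1.62 (adjusted p = 0.0474), from 1.20 to -0.42. Ghr with 1451871_a_at gave 1.38 (adjusted p = 0.03), from -1.06 to 0.32, and Stat5b with 1422102_a_at gave 1.18 (adjusted p = 0.0358), from -0.93 to 0.25. Igf1 with 1452014_a_at gave 0.53 (adjusted p = 0.0208), from -0.47 to 0.06. The other probe sets of Ghr, Stat5b, Socs3 and Igf1 were not called for this difference. With the beta-actin ratio as a covariate none of these 5 differences was called. Groups of 3 mice were not tested for a single mouse far from the others.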

How the results depend on the processing

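Changes of called member probe sets turned sign in 2 instances, both with the beta-actin ratio as a covariate: Ghr 1451871_a_at gave 0.03 at the end of treatment and -0.02 for the difference between the times. Changes that were not called turned sign more often, in 71 instances, 23 of them with that covariate. The ratio separates the groups there, and that fit called 0 members and 86 of all probe sets at the end of treatment, 360 of all after withdrawal, 0 members and 1 of all for the difference, 1 and 277 for time in vehicle mice, and 1 and 159 for time in testosterone mice. Without a filter, which adds 1 member and tests 22626 probe sets, counts were 5 and 1509 at the end of treatment, 341 of all after withdrawal, 1 and 63 for the difference, 2 and 1041 in vehicle mice, and 4 and 712 in testosterone mice. Requiring all 12 arrays above the median left 16 members among 9720 probe sets. Then 7 members and 2051 of all were called at the end of treatment. For the difference the counts were 3 and 557, and in testosterone mice 4 and 1060. Without a variance trend the difference was called for 2 members and 334 of all. With 1 probe set per gene, which tests 10 members, the counts were 4 and 1258, 2 and 158 for the difference, 1288 of all in vehicle mice, and 5 and 785 in testosterone mice. Excluding probe sets of several transcripts left 9 members among 7552 probe sets. The counts were then 5 and 1452 at the end of treatment and 1 and 355 for the difference. They were 1 and 1363 in vehicle mice, and 2 and 794 in testosterone mice.

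Same-numbered mice of different groups did not deviate together (correlations -0.16 to 0.05, and 0 of 12 samples were closest to their own number). This check found no sign that the numbers pair the mice, but with 3 mice per group it cannot exclude a pairing of small effect. With the replicate block 10 members and 1906 of all were called at the end of treatment. After withdrawal the counts were 1 and 465, and for the difference 3 and 253. Leaving out 1 mouse gave 8 to 9 members and 1395 to 2028 of all at the end of treatment, 1 member throughout and 299 to 1011 of all after withdrawal, 1 to 6 and 103 to 1503 for the difference, 2 to 5 and 707 to 2121 in vehicle mice, and 5 to 9 and 665 to 1659 in testosterone mice. The highest counts after withdrawal, for the difference and in testosterone mice came without testosterone mouse 1 after withdrawal. Median centring also changed the split over time, from 1149 higher and 842 lower to 714 and 1203 in vehicle mice, and from 676 and 554 to 504 and 690 in testosterone mice. The alternatives for single members between the times were chosen after seeing the data. The cause of these changes was not tested beyond the number of probe sets or mice that each setting removes.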
